A study of Mus musculus with 6 samples.

Results

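The S100 proteins are a family of small calcium-binding proteins, and 10 of their genes (S100a1, S100a4, S100a6, S100a8, S100a9, S100a10, S100a11, S100a13, S100a16 and S100b) are described here in tibial joint tissue, cartilage and the bone beneath it, of Frzb-/- and wild-type mice. The members were taken by gene symbol alone, as every probe set of the array table that is annotated to 1 of these genes and to no other gene. Of the 10 genes, 9 were measured, by 14 of the 30618 probe sets, and together they are 9 of the 13817 genes with a probe set of their own. S100a11, which binds annexin A1, has in the deposited table only a probe set that it shares with other gene loci and was therefore given no value. That table was filtered before deposit by removal of absent probe sets, so a gene without a row in it may still have a probe set on the array.

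Frzb encodes a secreted antagonist of WNT ligands, and the study asked how its loss changes the unstressed joint tissue. Articular cartilage of the tibia, with the subchondral bone, was the source of RNA in male C57Bl/6J mice aged 6 weeks, and each mouse was hybridised to an array of its own. By the study's histology the dissected piece also took in bone marrow and some of the growth plate. The wild-type group held 3 mice (animals 6-1, 8-1 and 9-1), and animals 6, 14 and 17 were labelled Frzb-/-, a germline loss of the gene in all cells, with no other allele or treatment named. The study set aside a mouse labelled Frzb-/- that was heterozygous when genotyped again. Its array number was not given, but the printed fold changes could be matched to the deposited values for animals 14 and 17 in 40 of 40 lines and for all other choices of labelled arrays in 0 of 40. Animals 14 and 17 (n = 2) were therefore compared with the wild-type mice (n = 3), and animal 6 is shown apart.

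S100 proteins form dimers that change shape when calcium binds and then dock on partner proteins. Inside cells they act on the cytoskeleton, on annexins at the membrane and on calcium handling. Some are also released and act on receptors of innate immunity, among them TLR4 and the receptor for advanced glycation end products (Ager). S100a8 and S100a9 form calprotectin, the main cytosolic protein of neutrophils, which is used as a marker of joint inflammation. S100a4 is widespread in fibroblasts, and S100a1 and S100b are made in chondrocytes, where SOX factors control them.

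Values are log2 expression values, so a difference of 1 is a doubling. Levels are not ranked between probe sets, and where values of different probe sets are subtracted within an array, the comparison is of that difference between the groups. Medians per array lay between 7.32 and 7.45. Frzb itself, the check of the labels, had values of 10.02, 10.79 and 10.16 in the wild-type group, 7.02 and 6.42 in animals 14 and 17, and 6.93 in animal 6 at its brighter probe set. The library labelled Frzb-/- 6 was thus as low in Frzb as the other labelled libraries. Over all probe sets, however, animal 6 correlated with the wild-type arrays at 0.983 to 0.991, and with animals 14 and 17 at 0.940 to 0.957. The tissue contained cartilage on every array, and Col2a1, the main cartilage collagen, was 14.67 on average in the wild-type group and differed by 0.03 in animals 14 and 17.

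Animals 14 and 17 were compared with the wild-type mice in limma, and a difference passed when its adjusted p (Benjamini-Hochberg) was under 0.01 and its size above 1 on the log2 scale. With each gene read at its brightest probe set, S100a4 rose, S100a8 and S100a9 fell, and 6 of the 9 genes did not pass. Over all genes, 3.03% passed as higher and 6.02% as lower. An unadjusted limma p under 0.05 was found for 7 of the 9 genes and for 41.6% of all genes. The median difference of the 9 genes was 0.37, against 0.04 over all genes. All values of animals 14 and 17 lay above all wild-type values for 5 of the 9 genes and below them for 2, while the share of all genes was 31.0% above and 28.1% below.

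**Figure D1:**
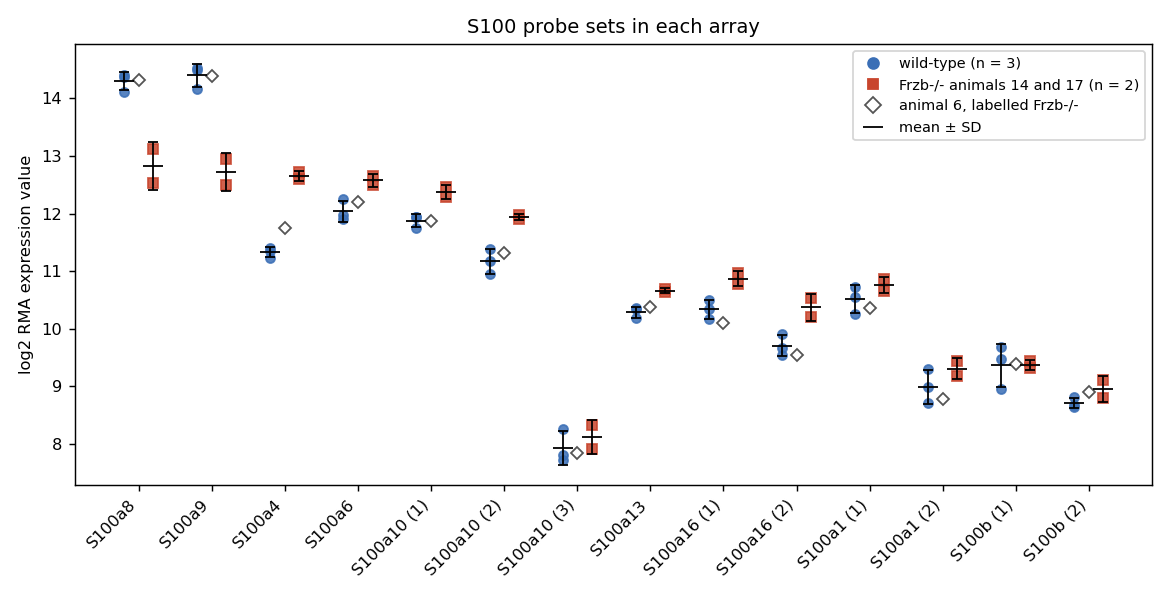
Log2 expression value (vertical axis) of the 14 S100 probe sets in every array, with the probe sets of a gene numbered by falling wild-type mean and bars for mean ± SD. S100a8 and S100a9 of animals 14 and 17 (squares) lay below all wild-type mice (circles), S100a4 lay above them, and animal 6 (diamonds) was within the wild-type range for 10 of the 14 probe sets.

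The promoters of these 3 genes are shown because they are the members whose expression passed the test. Each line gives the 250 bases before the RefSeq transcription start in build GRCm38.p6, read 5′ to 3′ on the gene's own strand. S100a8 is on the plus strand (chr3:90668821-90669070), S100a9 on the minus strand (chr3:90695722-90695971) and S100a4 on the plus strand (chr3:90603520-90603769).
S100a8: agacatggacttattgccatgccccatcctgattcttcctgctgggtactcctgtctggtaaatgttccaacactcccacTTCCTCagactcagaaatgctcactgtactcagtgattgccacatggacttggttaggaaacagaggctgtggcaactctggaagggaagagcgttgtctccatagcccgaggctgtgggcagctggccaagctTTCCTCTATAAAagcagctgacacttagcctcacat
S100a9: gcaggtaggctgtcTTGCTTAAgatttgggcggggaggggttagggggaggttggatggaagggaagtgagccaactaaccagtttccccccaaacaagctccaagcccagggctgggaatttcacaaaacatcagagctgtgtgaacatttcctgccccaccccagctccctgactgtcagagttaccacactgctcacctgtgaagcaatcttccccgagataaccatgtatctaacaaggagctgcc
S100a4: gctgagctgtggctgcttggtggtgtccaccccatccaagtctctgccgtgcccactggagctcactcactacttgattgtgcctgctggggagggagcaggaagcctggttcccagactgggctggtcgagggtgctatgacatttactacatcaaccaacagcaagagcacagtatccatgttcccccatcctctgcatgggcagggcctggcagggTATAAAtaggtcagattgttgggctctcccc
Capitals mark letters found by a search of both strands for TATAAA (the core promoter box), TTGCNNAA (C/EBP, a factor family of myeloid cells), GAGGAA (core of PU.1, also a myeloid factor) and CTTTGAT (core of TCF/LEF, the factors at the end of canonical WNT signalling). The S100a8 window held 1 TATAAA and 2 GAGGAA on the opposite strand, and the second of these abuts the TATAAA. The S100a9 window held 1 TTGCNNAA, and that of S100a4 held 1 TATAAA. Of all 32851 RefSeq promoter windows of the same length, 12.4% held TATAAA, 9.56% TTGCNNAA, 23.3% GAGGAA and 3.21% CTTTGAT. No CTTTGAT was found in the windows of the members, of which S100a10 has none in the table used. These matches are a description of the letters and were not tested as binding sites.

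The largest differences in the family were those of calprotectin. S100a8 had values of 14.12, 14.37 and 14.40 in the wild-type group and of 13.12 and 12.54 in animals 14 and 17. Its mean fell from 14.30 ± 0.15 (SD, n = 3) to 12.83 ± 0.41 (SD, n = 2), which is 2.77-fold lower (log2 difference -1.47, SE 0.20, limma adjusted p = 0.00293). S100a9, the partner subunit, had values of 14.17, 14.53 and 14.49 in the wild-type group and of 12.96 and 12.49 in animals 14 and 17. For both subunits the groups were clearly apart, with animal 17 the lowest. S100a9 fell by 1.67 on the log2 scale, or 3.19-fold (SE 0.19, limma adjusted p = 0.0017). The 95% limits of the differences were -1.94 to -1.01 for S100a8 and -2.11 to -1.23 for S100a9. Both fell short of the adjusted p threshold when wild-type animal 8-1 was left out (limma adjusted p = 0.0168 for S100a8 and 0.0106 for S100a9) or when animal 17 was left out (0.0152 and 0.0130). The differences were then -1.43 and -1.61 without animal 8-1, and -1.18 and -1.44 without animal 17.

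Calprotectin moved together with other genes of neutrophils. The median difference of 16 measured neutrophil markers in animals 14 and 17 was -2.48. Of the 16, 15 passed as lower (6.02% of all genes did) and 0 as higher (3.03%). They include Ngp (-1.78) and Camp (-2.01), proteins of neutrophil granules, and the collagenase Mmp8, whose mean was 11.17 ± 0.62 (SD, n = 3) in the wild-type group and 7.64 ± 0.20 (SD, n = 2) in animals 14 and 17. The gelatinase Mmp9, which osteoclasts also make, was the exception at -0.10 (limma adjusted p = 0.581). The mean over the list was between 11.37 and 11.96 in the wild-type group, 9.54 and 9.15 in animals 14 and 17, and 11.59 in animal 6. Without animal 17, 5 of the 16 markers passed as lower, and the median was -2.25. The piece held bone marrow. The study linked many genes of its lowered inflammation pathways to marrow immune cells and did not follow them further. In a piece of whole tissue, fewer cells of a type and less RNA per cell cannot be told apart.

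**Figure D2:**
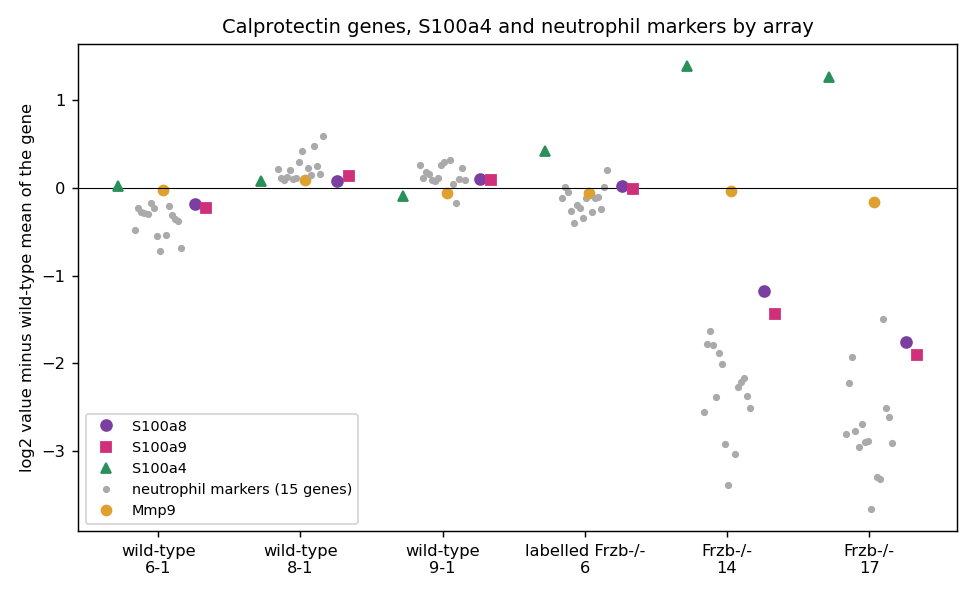
Log2 value of each gene minus its wild-type mean (vertical axis) in each of the 6 arrays (horizontal axis). In animals 14 and 17 the calprotectin genes (large circles and squares) were below 0 together with the neutrophil markers (small points), Mmp9 stayed near 0, and S100a4 (triangles) was above 0.

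Calprotectin was also set against the neutrophil markers within each array, on the log2 scale. The value of S100a8 minus the mean of the marker list was 2.75, 2.42 and 2.54 in the wild-type group and 3.58 and 3.38 in animals 14 and 17. The same measure for S100a9 was 2.80, 2.58 and 2.63 in the wild-type group and 3.42 and 3.34 in animals 14 and 17. The groups did not overlap for either subunit. The difference was 0.91 for S100a8 and 0.71 for S100a9 (exact permutation test over arrays, two-sided, p = 0.1 for each, which is the smallest p that 3 against 2 arrays allow). Within calprotectin, S100a9 minus S100a8 was 0.05, 0.16 and 0.09 in the wild-type group and -0.16 and -0.04 in animals 14 and 17, a difference of -0.20 with the same exact p of 0.1. These measures therefore could not pass a threshold of 0.05. The highest value of any probe set lay between 14.79 and 14.96 on the 6 arrays, close to the wild-type values of both genes, and whether signals are compressed near that limit was not tested. Ngp and Camp, with wild-type means of 14.26 and 13.91, had differences of -1.78 and -2.01, smaller in size than the list median of -2.48. Ltf, with a wild-type mean of 13.39, had a larger difference of -2.68. Cxcr2, with a wild-type mean of 8.44, had a difference of -1.86.

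Other blood cell markers moved in the same comparison, and their part in the result was not tested. Of 8 monocyte and macrophage markers, 2 passed as lower, namely Mpeg1 (-1.38), a pore-forming protein of macrophages, and Ccr2, a chemokine receptor of monocytes. Ccr2 measured 10.60, 10.77 and 10.70 in the wild-type group and 9.17 and 9.00 in animals 14 and 17. The median of the 8 was 0.11, and the macrophage receptor Csf1r differed by 0.19. C1qa, a complement subunit made by macrophages, lay above all wild-type values with a difference of 0.71 that did not pass (limma adjusted p = 0.00737). Without animal 8-1 or without animal 17, 1 of the 8 passed. All 7 measured erythroid markers passed as lower (median -2.80), as did 5 of 9 B cell markers (median -1.77). Of all genes, 6.02% passed as lower.

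S100a4, also called fibroblast-specific protein, was the only member that passed as higher. It measured 11.35, 11.41 and 11.24 in the wild-type group and 12.72 and 12.60 in animals 14 and 17. Replicates of a group were close to each other, and the groups were far apart. The mean was 11.33 ± 0.09 (SD, n = 3) in the wild-type group and 12.66 ± 0.09 (SD, n = 2) in animals 14 and 17, a 2.51-fold increase (log2 difference 1.33, SE 0.12, 95% limits 1.04 to 1.62, limma adjusted p = 0.00118). It passed without each of the 5 mice in turn, with differences of 1.27 to 1.39 and a highest limma adjusted p of 0.00978.

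Among 12 fibroblast markers, 6 passed as higher (3.03% of all genes did) and 0 as lower (6.02%), with a median of 0.90. They include the surface glycoprotein Thy1 (1.94), the matrix protein Dpt (1.77) and Col14a1, a collagen that associates with fibrils. Col14a1 measured 8.92, 9.26 and 9.19 in the wild-type group and 11.52 and 11.25 in animals 14 and 17. Of the 12 markers, 11 lay above all wild-type values in animals 14 and 17 (31.0% of all genes did). The remaining marker, Pi16, lay below all wild-type values, as did 28.1% of all genes. Its difference of -0.89 (limma adjusted p = 0.00887) did not pass on size. The list mean was between 10.45 and 10.72 in the wild-type group, 11.68 and 11.60 in animals 14 and 17, and 10.79 in animal 6. The count depended on single mice, with 2 passing without animal 8-1, 2 without animal 14, 1 without animal 17 and 4 without animal 9-1. Of 7 adipocyte markers, 3 passed as higher (median 1.21), but 0 passed without animal 8-1, animal 14 or animal 17, though all 7 then had an unadjusted limma p under 0.05. One adipocyte marker passed without animal 9-1. The part of fibroblasts and fat in the value of S100a4 was not tested.

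S100a6 and S100a10 are cytoplasmic members of adherent cells. S100a6 (calcyclin), which is induced in growing cells, had values of 11.90, 12.25 and 11.98 in the wild-type group and of 12.66 and 12.50 in animals 14 and 17. The groups did not overlap, but the difference of 0.54 (95% limits 0.19 to 0.89, limma adjusted p = 0.0372) did not pass. S100a10, the light chain of the annexin A2 complex that presents plasminogen activator at the cell surface, was read by 3 probe sets. Its brightest had values of 11.75, 11.93 and 11.95 in the wild-type group and of 12.46 and 12.29 in animals 14 and 17, a difference of 0.50 that did not pass (limma adjusted p = 0.0307). The second had values of 11.17, 11.39 and 10.96 against 11.98 and 11.90, with a difference of 0.77 (limma adjusted p = 0.0124). Both of these probe sets separated the groups. The third, with values of 7.72, 8.26 and 7.82 against 8.33 and 7.92, overlapped between the groups (difference 0.19, 95% limits -0.30 to 0.68, limma adjusted p = 0.532). The probe sets of S100a10 thus gave differences in 1 direction but of unequal size, and none passed.

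S100a13, which takes part in the export of FGF1 from cells, had values of 10.36, 10.34 and 10.18 in the wild-type group and of 10.69 and 10.63 in animals 14 and 17. The groups did not overlap, with a difference of 0.37 (95% limits 0.09 to 0.66, limma adjusted p = 0.0613). S100a16, a broadly expressed member, had values of 10.50, 10.34 and 10.17 in the wild-type group and of 10.96 and 10.78 in animals 14 and 17 at its brighter probe set. The difference was 0.53 (limma adjusted p = 0.0346). Its other probe set gave 9.91, 9.67 and 9.55 against 10.53 and 10.21, a difference of 0.66 (limma adjusted p = 0.0261). Neither probe set of S100a16 overlapped between the groups, and neither passed. Of the 6 genes that did not pass, S100a6, S100a10 and S100a16 had an adjusted p under 0.05 and failed on size as well as on the adjusted p of 0.01.

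The members known from chondrocytes did not pass. S100a1, which also regulates calcium cycling in muscle, had values of 10.73, 10.56 and 10.26 in the wild-type group and of 10.66 and 10.86 in animals 14 and 17 at its brighter probe set. The groups overlapped there (difference 0.24, 95% limits -0.16 to 0.64, limma adjusted p = 0.332) and at the other probe set (0.31, 95% limits -0.14 to 0.77, limma adjusted p = 0.273). S100b, which is also made by Schwann cells, had values of 8.95, 9.68 and 9.48 in the wild-type group and of 9.31 and 9.43 in animals 14 and 17 at its brighter probe set. Both values of animals 14 and 17 lay inside the wild-type range, with a difference of 0.0033 (95% limits -0.51 to 0.52, limma adjusted p = 0.993). The second probe set of S100b gave 8.65, 8.81 and 8.68 against 8.79 and 9.11, a difference of 0.24 (95% limits -0.10 to 0.57, limma adjusted p = 0.260). The upper limits reach 0.77 and so do not show that the groups were alike.

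Of 12 chondrocyte markers, 0 passed in limma and 3 had an unadjusted p under 0.05 (41.6% of all genes did), with a median of -0.16. Of 10 skeletal muscle markers, 0 passed and 0 had an unadjusted p under 0.05, and the median was 0.23. The mean of the muscle list varied among the mice, between 13.57 and 14.19 in the wild-type group, at 13.94 and 14.19 in animals 14 and 17, and at 12.97 in animal 6. Of 8 Schwann cell markers 4 were measured, and their median was 0.71. Of these 4, the myelin gene Mbp passed as lower (-1.35), though not without animal 8-1 or without animal 17. The other 3 lay above all wild-type values without passing, with differences of 0.99 for Cdh19, 0.90 for Pmp22 and 0.52 for Egr2. How far the level of S100a1 follows muscle in the pieces was not tested.

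**Figure D3:**
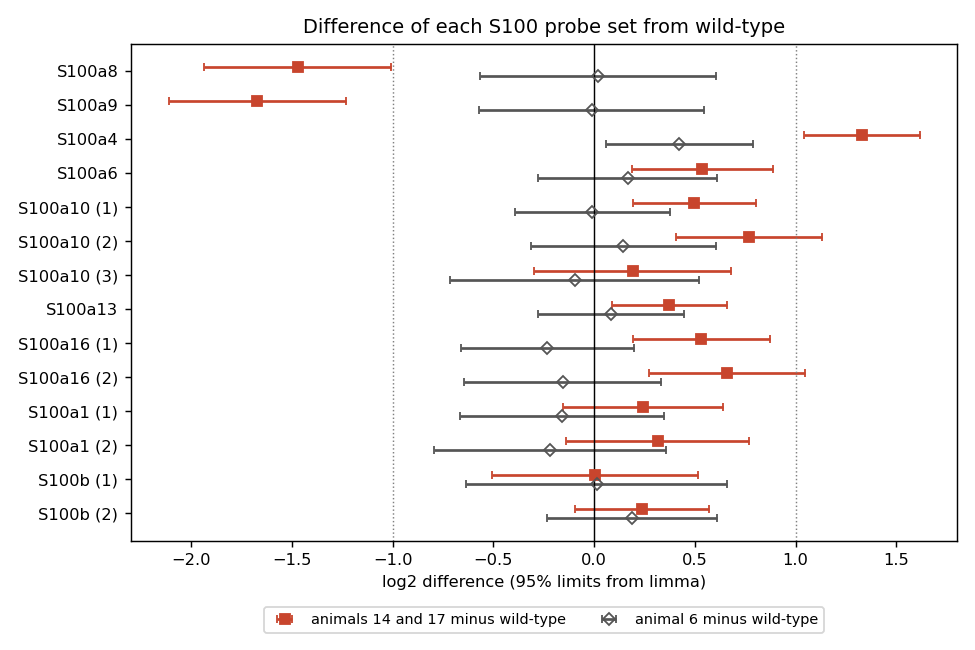
Log2 difference from wild-type (horizontal axis, 95% limits from limma) of each S100 probe set, for animals 14 and 17 (squares) and for animal 6 (diamonds), with dotted lines at a difference of 1 in either direction. The limits of S100a8, S100a9 and S100a4 lay beyond the dotted lines in animals 14 and 17, and those of the probe sets of S100a1 and S100b included 0.

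Animal 6 resembled the wild-type mice in most members. Its values were 14.31 for S100a8 and 14.39 for S100a9, inside the wild-type ranges. S100a4 was 11.75 in animal 6, above all wild-type mice and below animals 14 and 17. In limma, with the spread taken from the other groups because animal 6 is a single array, S100a4 of animal 6 differed from wild-type by 0.42 (95% limits 0.06 to 0.79, adjusted p = 0.678). None of the 9 genes passed in that comparison (0 of them, and 1 at an unadjusted limma p under 0.05, against 5.59% of all genes), as was so for all 13817 genes (0.00%). Against animals 14 and 17, S100a9 of animal 6 was higher by 1.66 (limma adjusted p = 0.00895) and passed. S100a8 was higher by 1.49 (limma adjusted p = 0.0139) and S100a4 differed by -0.91 (limma adjusted p = 0.0148), and neither passed. Over all genes 3.29% passed as higher and 1.06% as lower in animal 6 than in animals 14 and 17. The comparison shares its arrays with that of the wild-type mice.

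When all 3 labelled mice were taken as the Frzb-/- group, the differences were 1.03 for S100a4, -0.98 for S100a8 and -1.12 for S100a9. None of the 9 genes then passed in limma (lowest adjusted p = 0.428, with 3 genes at an unadjusted p under 0.05, against 12.5% of all genes), and the share of all genes that passed was 0.00%. The 3 calls above thus rest on the choice of animals 14 and 17.

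Most members lie side by side in the genome. In RefSeq gene order on chromosome 3, S100a1, S100a13, S100a16, S100a4, S100a6, S100a8 and S100a9 belong to an unbroken run of S100 genes, S100a11 and S100a10 follow farther on, and S100b is alone on chromosome 10. S100a4 rose and S100a8 fell within this run. Between them lie S100a5, S100a6 and S100a7a, of which only S100a6 was measured, and it did not pass. S100a8 and S100a9, the adjacent genes at the end of the run, both fell. S100a1 and S100a13 start head to head and share 104 of the 250 bases before their starts, and their differences were 0.24 and 0.37, neither of which passed. S100a14, S100a3, S100a2, S100a5 and S100a7a of the same run had no probe set of their own in the deposited table.

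**Figure D4:**
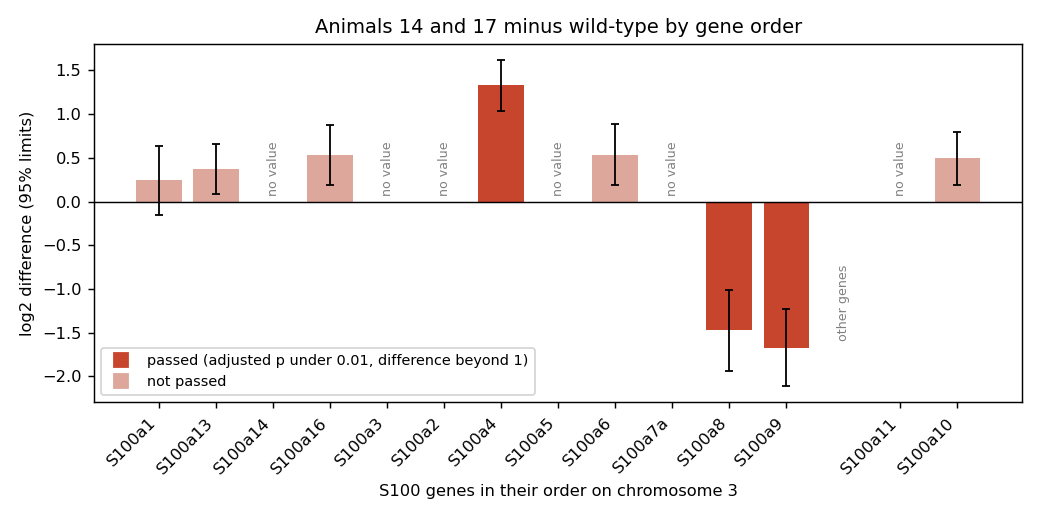
Log2 difference of animals 14 and 17 from wild-type (bars, 95% limits) for the S100 genes of chromosome 3 in their order, each at its brightest probe set. Dark bars passed the test and pale bars did not. The falls of S100a8 and S100a9 lie in the same run of genes as the rise of S100a4. S100a6, which did not pass, is the only measured gene between S100a4 and S100a8.

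The genes whose profiles over the 6 arrays lay nearest to those of the members were found by Euclidean distance between centred log2 values. For S100a8 they were Gpsm3 (distance 0.107) and Myo1g (0.108), a myosin of blood cells. For S100a9 they were Klhl6 (0.102) and Vav1 (0.129), a signalling protein of blood cells. For S100a4 they were Ptgfrn (0.0899) and Plxdc2 (0.113), and for S100b, whose profile varied mainly among the wild-type mice, Rsl1 (0.0826) and Ldlrad3 (0.125). These genes were chosen for their likeness over the same arrays, so that it is a description only.

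Receptors and binding partners of S100 proteins were examined as a list of 22 genes, of which 20 were measured. Ager and Anxa11 had no probe set of their own in the deposited table. With each gene read at its brightest probe set, 1 of the 20 passed as higher and 0 as lower, against 3.03% and 6.02% of all genes. Counted at any probe set, 1 gene passed as higher and 1 as lower. An unadjusted limma p under 0.05 was found for 11 of the 20, of which 2 were lower, and for 41.6% of all genes. The median difference was 0.27. The values of animals 14 and 17 lay above all wild-type values for 9 of the 20 genes and below them for 4. Of all genes, 31.0% lay above and 28.1% below. The gene that passed at its brightest probe set was Plat, the tissue plasminogen activator, which S100a10 with annexin A2 binds at the cell surface. It measured 8.38, 8.29 and 7.99 in the wild-type group and 9.51 and 9.52 in animals 14 and 17, and it was 7.78 in animal 6. The groups were well apart (log2 difference 1.30, SE 0.15, limma adjusted p = 0.00185), but Plat did not pass without animal 8-1, without animal 14 or without animal 17.

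Among the receptors, Tlr4 had values of 6.87, 7.19 and 6.67 in the wild-type group and of 7.63 and 7.60 in animals 14 and 17, a difference of 0.70 that did not pass (limma adjusted p = 0.0235). Its co-receptor Cd14 differed by 0.67 (limma adjusted p = 0.011). Both lay above all wild-type values. Cd36, another surface receptor of the list, differed by 0.75 (limma adjusted p = 0.0359), also above all wild-type values. Ly96, which also assists Tlr4, differed by 0.38 and Bsg by 0.03, both with overlapping groups. Alcam differed by -0.43, below all wild-type values. None of these genes passed at its brightest probe set. Among the annexins, Anxa2, the partner of S100a10, had values of 12.28, 12.53 and 12.39 against 12.96 and 12.93. Its difference of 0.55 did not pass (limma adjusted p = 0.0198). Anxa1, the partner of S100a11, differed by 0.03 (95% limits -0.44 to 0.50, limma adjusted p = 0.932). Anxa4, Anxa5 and Anxa6 differed by 0.67, 0.50 and 0.58, all above all wild-type values. None of them passed (limma adjusted p = 0.0144, 0.0335 and 0.0246). Ahnak, a giant scaffold protein bound by S100a10, differed by 0.57 (limma adjusted p = 0.0144), and Cacybp, the calcyclin-binding protein, by -0.55 (limma adjusted p = 0.015). S100pbp, a nuclear protein that binds an S100 protein, is the only other gene with an S100 symbol in the deposited table. It differed by -0.50 at its brighter probe set (limma adjusted p = 0.122) and by 0.27 at the other (limma adjusted p = 0.275).

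**Figure D5:**
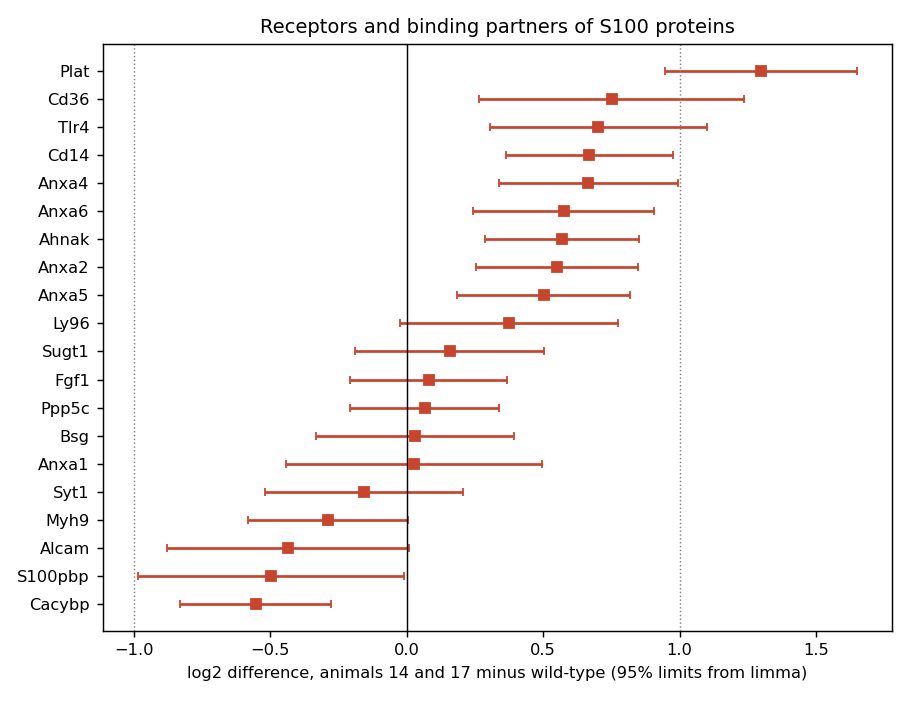
Log2 difference of animals 14 and 17 from wild-type (horizontal axis, 95% limits from limma) for the 20 measured receptors and binding partners of S100 proteins, with dotted lines at a difference of 1 in either direction. Plat, at 1.30, lay beyond the dotted line, and the points of the other genes lay within the lines.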

How the data were processed

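Affymetrix mouse arrays were hybridised with RNA of 6 mice, each on its own array. The authors computed log2 expression values by RMA (background correction, quantile normalization and summary per probe set) after removing control and absent probe sets, and deposited them for 30618 probe sets without detection calls. The submitters' processing notes name affy 1.20.0. Probe sets were named by the platform annotation, with 25090 annotated to 1 gene, 677 to several and 4851 to none. The brightest probe set stood for a gene in counts. The members, gene lists and thresholds were chosen with earlier results of these data known.

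The arrays of the study's comparison were identified by matching its printed fold changes to the deposited values within 0.01, and no printed value was used otherwise. All probe sets were fitted with lmFit and eBayes of limma 3.58.1 (R 4.3.3), with two-sided p-values adjusted by Benjamini-Hochberg over all probe sets. Thresholds were those of the study, 0.01 for the adjusted p and 1 for the size of the log2 difference. Log2 ratios to the neutrophil markers were tested by an exact permutation test over arrays in Python 3.11.15. The fit was tested on simulated data. P-values measure the spread between mice, and arrays have no read depth, so that the number of arrays limits precision.

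Named are all members, S100pbp, the partner that passed with Ager, Tlr4, Anxa1 and Anxa2, up to 3 genes of each marker list and the 2 nearest profiles of S100a4, S100a8, S100a9 and S100b. Cd14, Cd36, Ly96, Bsg, Alcam, Anxa4, Anxa5, Anxa6, Ahnak, Cacybp and C1qa were added after their values were seen. So were Ltf, Cxcr2, Pi16 and the further Schwann cell markers. Mmp9 is named besides, as the 1 neutrophil marker that did not pass. The alternatives were all 3 labelled mice, each mouse left out, filters on dim probe sets, cyclic loess, median centring, trended, robust and no moderation, array weights, the mean over probe sets and other thresholds. Promoters came from RefSeq GRCm38.p6 and were searched on both strands. Protein sequences were not used here.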

Additional observations from a re-analysis of the deposited data

How the results depend on the processing

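Filters on dim probe sets, cyclic loess, trended and robust moderation and averaging the probe sets of each gene kept the 3 member calls. With all 3 labelled mice, 0 members passed as higher and 0 as lower in limma, as did 0 partner genes (4 at an unadjusted p under 0.05), and the log2 ratios were 0.66 for S100a8 and 0.52 for S100a9 to the neutrophil markers and -0.14 for S100a9 to S100a8. That comparison gave 1 higher and 2 lower with array weights. Without moderation 0 members passed in either direction (7 at an unadjusted p under 0.05) and 0 partners (10 unadjusted), and 0 in animal 6 against animals 14 and 17 (5 unadjusted), where array weights gave 2 higher and median centring 1 lower. With an adjusted p under 0.05 alone, 4 members and 9 partners passed as higher, and 2 members and 1 partner as lower. With a size above 0.5 as well, 3 members and 9 partners were higher, and 2 members and 1 partner lower. The share of all genes is not given at these thresholds or without moderation. With moderation, 41.6% of all genes had an unadjusted limma p under 0.05 in the main comparison, and 12.5% with all 3 labelled mice.

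With 1 mouse left out at a time, members that passed as lower numbered 0 to 2, partners as higher 0 to 1, and members higher in animal 6 than in animals 14 and 17 0 to 2. For all 3 labelled mice, 1 passed as higher and 2 as lower without animal 6, which is the main comparison again. Without any other single mouse, 0 passed as higher and 0 as lower. The log2 ratios ranged from 0.81 to 1.01 for S100a8, 0.66 to 0.77 for S100a9 and -0.26 to -0.14 for S100a9 to S100a8. Directions turned at the third probe set of S100a10 (-0.013 without animal 14, range to 0.40) and at the brighter one of S100b (-0.20 without animal 6-1 and -0.06 without animal 17, range to 0.16, and -0.13 with array weights). The cause was not tested. No paired analysis was possible because the groups share no replicate numbers. Without detection calls, signal over background was not assessed.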

Other observations

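Markers of endothelium, the lining of blood vessels, did not pass between the groups. Of 10 measured markers, 0 passed in limma in animals 14 and 17 and 9 had an unadjusted p under 0.05 (41.6% of all genes did), with a median difference of 0.54. The mean of the list was between 8.58 and 8.99 in the wild-type mice, 9.30 and 9.19 in animals 14 and 17, and 8.68 in animal 6. Animal 6 was also the lowest of all 6 mice in the mean of the adipocyte list, at 9.29, against 9.46 to 10.18 in the wild-type mice and 11.03 and 10.87 in animals 14 and 17.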
